A study of Mus musculus with 2 samples.

Results

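Tissue-specifically transcribed regions (TSTRs) are stretches of intergenic DNA that the authors listed as giving more RNA in embryonic heart than in limb, or the reverse. The TSTRs described here lay within 100 kb of an annotated transcript start of Nkx2-5, Gata4, Gata6, Tbx5, Tbx20, Hand2, Mef2c or Isl1, which encode transcription factors of the developing heart. Of the 1912 deposited TSTRs, 26 met this rule, 18 of the 834 heart-specific and 8 of the 1078 limb-specific regions. They belonged to 5 of the 8 genes, and 3 genes had none. No region overlapped an annotated gene, and the authors had removed regions that overlap known transcripts before listing. Total RNA came from heart and limb at embryonic day 11.5 (E11.5). The mice were of the CD-1 strain, with no treatment or allele in the labels. Each tissue was 1 pool from several embryos, microdissected, so it held all cell types of that tissue. There was no replicate, and every interval of a ratio below covers counting error only.

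These factors form the core of the cardiac gene programme. NK2, GATA, T-box, bHLH, MADS and LIM homeodomain proteins bind enhancers of heart genes together and also regulate one another. Several of them act outside the heart as well, among them Tbx5 in the forelimb bud, Hand2 in the posterior limb bud and Isl1 in the early hindlimb field. Enhancer RNAs are short non-coding transcripts made where an enhancer is bound by the transcription machinery, so RNA outside genes can point to candidate regulatory DNA near a gene.

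The central 200 bp of the region with the most reads in its own tissue are shown for Nkx2-5, Gata4, Tbx20 and Tbx5, to present the DNA behind the strongest signal at each gene. The windows are chr17:26986714-26986913, chr14:63814684-63814883, chr9:24520946-24521145 and chr5:120251112-120251311, read on the plus strand of mm9 (NCBI build 37). Capitals mark a match to a short motif of a GATA, NK2, T-box, Hand2 or MEF2 factor, and no 2 matches overlap.
Nkx2-5 (heart list): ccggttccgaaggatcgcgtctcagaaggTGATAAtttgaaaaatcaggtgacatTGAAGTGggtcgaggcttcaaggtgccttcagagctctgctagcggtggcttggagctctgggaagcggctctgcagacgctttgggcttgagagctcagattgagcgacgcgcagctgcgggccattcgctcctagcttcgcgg
Gata4 (heart list): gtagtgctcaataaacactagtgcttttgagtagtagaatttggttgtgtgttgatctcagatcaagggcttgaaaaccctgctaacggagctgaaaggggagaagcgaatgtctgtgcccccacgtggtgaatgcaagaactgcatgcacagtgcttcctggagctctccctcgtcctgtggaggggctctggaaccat
Tbx20 (heart list): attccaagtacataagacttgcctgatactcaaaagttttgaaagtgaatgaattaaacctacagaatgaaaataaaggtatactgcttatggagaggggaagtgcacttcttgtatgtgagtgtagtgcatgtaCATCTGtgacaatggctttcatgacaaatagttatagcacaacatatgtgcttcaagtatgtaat
Tbx5 (limb list): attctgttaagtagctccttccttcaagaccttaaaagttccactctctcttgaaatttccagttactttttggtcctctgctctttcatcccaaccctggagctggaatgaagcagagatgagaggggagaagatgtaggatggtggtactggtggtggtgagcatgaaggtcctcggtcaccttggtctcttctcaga

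The files give raw read counts and RPKM (reads scaled by region length in kilobases and by the size of the library) of both tissues for every TSTR. The library sizes behind the RPKM were 222362239 for heart and 192488089 for limb. At the median length of all listed regions, each read adds 0.0103 RPKM to the heart value and 0.0119 RPKM to the limb value. Where a region had no reads in the other tissue, 3 reads were taken as the floor, and the ratio is given as a lower bound. The files hold no gene rows, so the tissue labels could be read only through regions near marker genes. Of 7 heart muscle genes, 5 had a heart region within 100 kb and 1 also had a limb region. Myh6 and Myh7 among them had the same counts, 2 regions with 99 heart and 2 limb reads. Of 7 limb mesenchyme genes, 4 had a limb region and none had a heart region. The marker genes were Myh6, Myh7, Nppa, Actc1, Tnnt2, Myl7 and Myl2 for heart muscle and Prrx1, Lmx1b, Hoxd13, Hoxa13, Tbx4, Pitx1 and Msx1 for limb mesenchyme. In longer gene lists some genes went the other way, with heart regions near the limb factor genes Meis1, Meis2 and Twist1. No region of either list lay within 100 kb of the 4 endothelial or the 4 red blood cell markers, and 1 of 4 skeletal muscle precursor genes had a heart region.

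Heart TSTRs were found near Nkx2-5 (10 regions), Gata4 (4), Tbx20 (3) and Gata6 (1), and limb TSTRs near Tbx5 only among these genes (8). At a limit of 200 kb, 3 limb TSTRs near Nkx2-5 were added. In the GENCODE vM1 annotation, 4.06% of 22380 protein-coding genes had at least 1 heart TSTR within 100 kb, and 9.03% had at least 1 limb TSTR. At least 10 heart regions, the number at Nkx2-5, were counted at 0.067% of the genes, at least 4, the number at Gata4, at 0.322%, and at least 3, the number at Tbx20, at 0.527%. At least 8 limb regions, the number at Tbx5, were counted at 0.0715%. These shares count single regions. Joined within 1000 bp, the regions formed 3 loci at Nkx2-5, 1 at Gata4, 2 at Tbx20 and 4 at Tbx5. Neighbouring genes count the same regions, so the shares describe gene neighbourhoods and are no test of the listed genes.

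**Figure D1:**
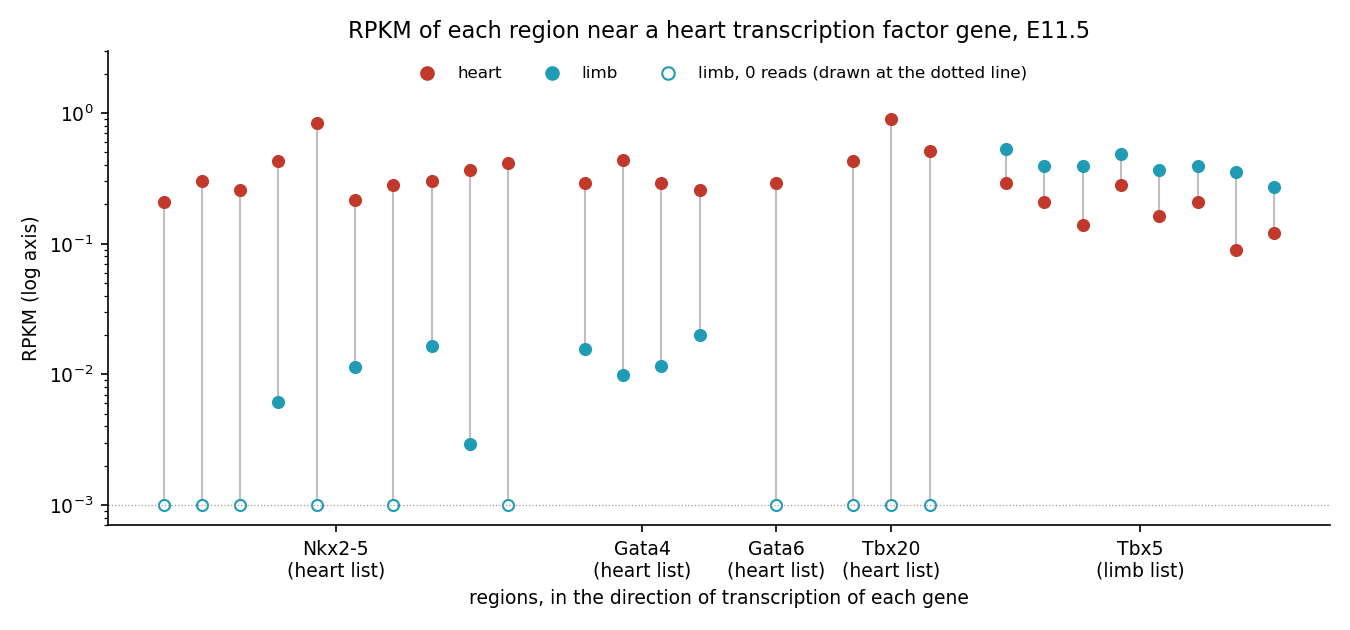
RPKM in heart (red) and limb (blue) of the 26 regions, grouped by gene and ordered in the direction of transcription, on a log axis. Open circles are regions with 0 limb reads, drawn at the dotted line. The heart level of the 18 heart TSTRs lies between 0.209 and 0.897 with limb at most 0.0200, whereas at Tbx5 heart and limb lie close together, limb above heart in all 8.

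Nkx2-5 encodes the NK2 homeodomain factor that marks cardiac progenitors and cardiomyocytes. The gene lies on the minus strand of chromosome 17 from 26975609 to 26978510. Its 10 heart TSTRs held 938 heart reads and 7 limb reads, an excess of 116-fold per total (95% exact interval 56.1 to 289). The regions spanned 22674 bp, and 148 bp were shared between neighbouring regions, where a read can be counted for both. Each of the 10 regions had at most 2 limb reads, and 6 had none.

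The strongest of them, chr17:26986078-26987548, began 7569 bp upstream of the Nkx2-5 start. It had 276 reads in heart (RPKM 0.844) and 0 in limb, which is at least 79.6-fold higher in heart. Among the 834 heart TSTRs it ranked 11 by z, 41 by heart reads and 84 by heart RPKM. Adjoining it, chr17:26987566-26989259 had 163 heart and 2 limb reads (RPKM 0.433 and 0.00614), a 70.6-fold excess (19.2 to 587). The series continued away from the gene with regions of 77, 90 and 13 heart reads, all without limb reads, the last of them 14250 bp from the start. The closest annotated start of these last 3 was that of the non-coding transcript Gm20468, at 5349 to 7867 bp, and Nkx2-5 was the closest protein-coding gene of all 10.

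Close to the promoter, chr17:26979081-26979958 lay 572 bp upstream of the start, with 55 heart reads (RPKM 0.282) and 0 limb reads, at least 15.9-fold higher in heart. The next region, 1764 bp upstream, had 44 heart and 2 limb reads. On the other side of the gene, 3 regions lay between 2018 and 4885 bp past its annotated 3′ end. The largest of these, chr17:26971245-26973024, had 145 heart reads and 1 limb read, a ratio of 126 (22.2 to 4992). The others had 42 heart and 2 limb reads, and 33 heart and 0 limb reads. Nkx2-5 was thus flanked on both sides, with 718 heart reads in the 7 upstream regions and 220 in the 3 downstream regions.

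**Figure D2:**
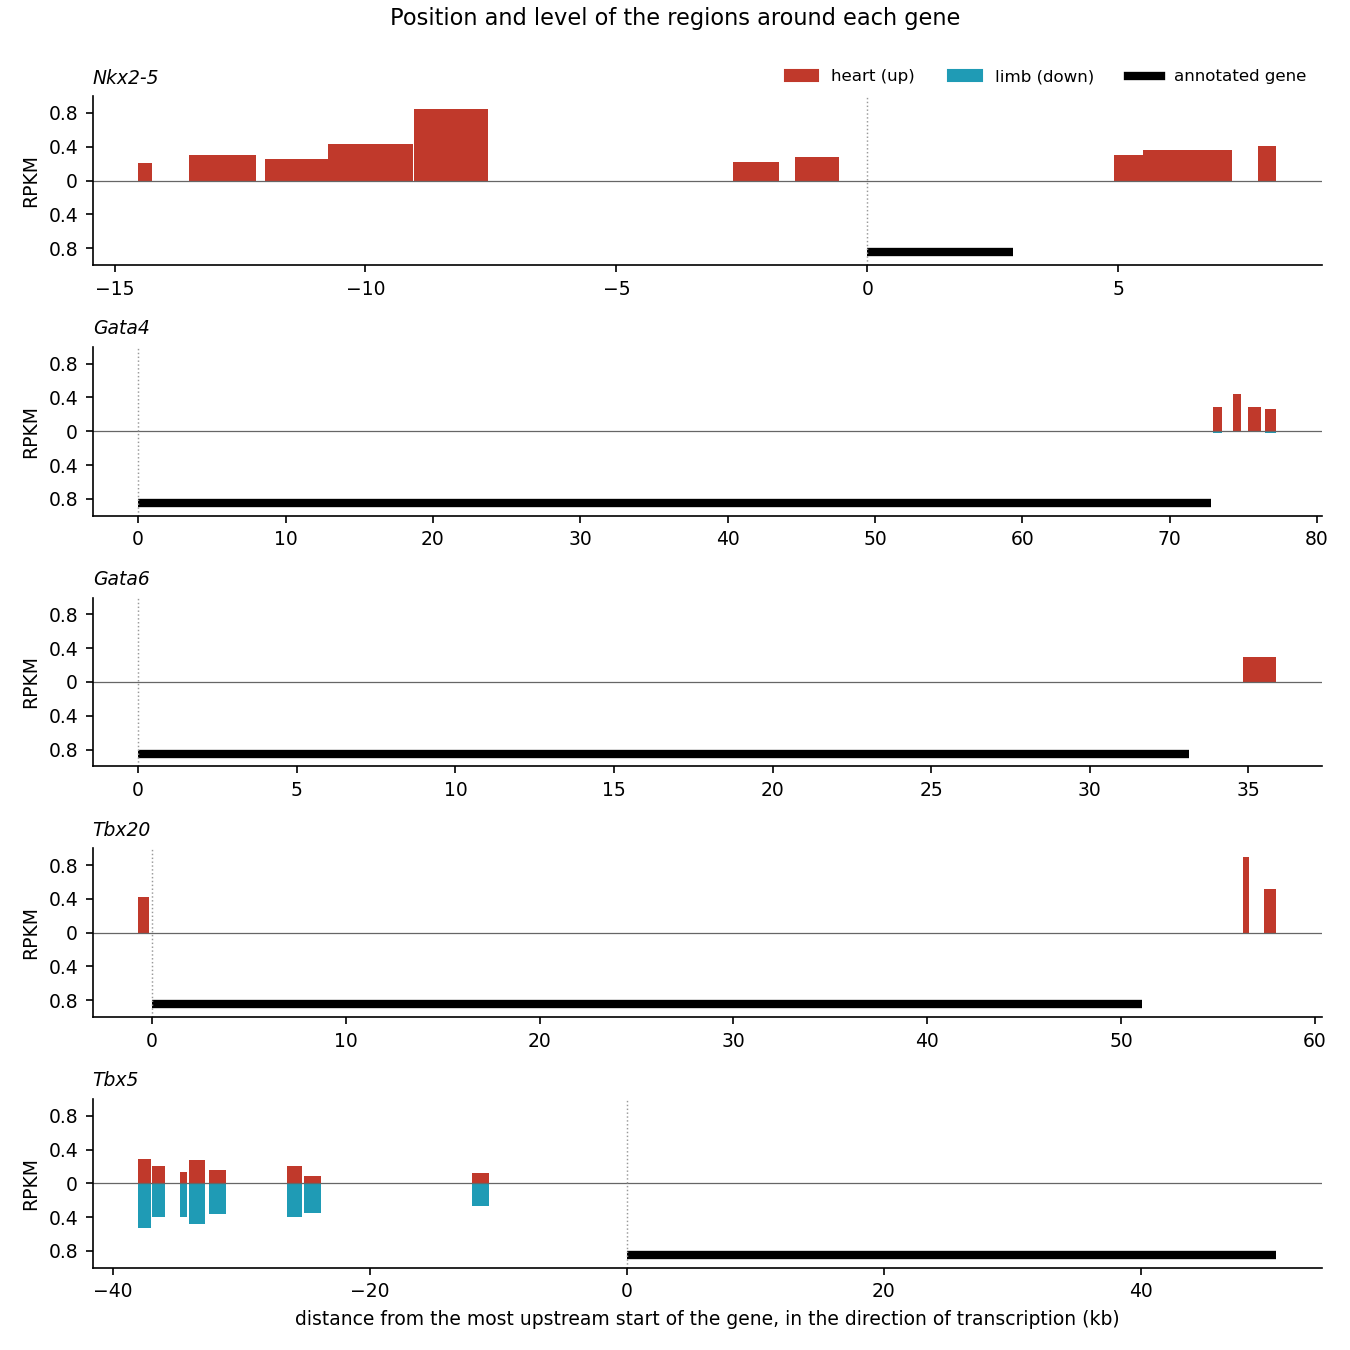
Position of every region relative to the most upstream annotated start of its gene, in kb along the direction of transcription, with heart RPKM drawn upward and limb RPKM downward. The black bar is the annotated gene. Heart TSTRs flank Nkx2-5 and Tbx20 on both sides and lie past the 3′ end of Gata4 and Gata6, and the 8 Tbx5 regions all lie upstream, with signal in both directions of the axis.

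Gata4 and Gata6 encode zinc finger factors of the GATA family that bind cardiac enhancers together with NK2 and T-box proteins. Gata4 lies on the minus strand of chromosome 14 from 63817759 to 63890529. Its 4 heart TSTRs formed a row of 4306 bp that began 151 bp past the annotated 3′ end of the gene. From the gene outward they had 43, 51, 58 and 45 heart reads and 2, 1, 2 and 3 limb reads. The heart RPKM ran from 0.260 to 0.435, and the limb RPKM from 0.00986 to 0.0200.

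The region with the highest RPKM, chr14:63815674-63816201, was 44.1-fold higher in heart (7.58 to 1778). The region with the most reads, chr14:63814335-63815231, was 25.1-fold higher (6.64 to 212). The lowest ratio was 13.0 (4.17 to 65.3), at chr14:63813302-63814080. Summed over the 4 regions, 197 heart and 8 limb reads gave a ratio of 21.3 (10.6 to 50.1). The closest transcript start of all 4 was that of Neil2, which encodes a DNA glycosylase, at 925 to 4569 bp, while the closest Gata4 start was 14836 to 18364 bp away. These regions thus met the distance rule at Gata4 but lay closer to the start of Neil2.

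Gata6 had a single heart TSTR, chr18:11087354-11088386, with 67 heart reads (RPKM 0.292) and 0 limb reads, at least 19.3-fold higher in heart. It lay 34847 bp from the Gata6 start and 1722 bp past the 3′ end of the gene, which occupies chromosome 18 from 11052508 to 11085633 on the plus strand. The start of the transcript 1010001N08Rik was about as close, at 34790 bp. At both GATA genes the listed RNA thus came from the 3′ flank, and no region of either list was found upstream within 100 kb.

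Tbx20 and Tbx5 encode T-box factors. Tbx20 acts in myocardium and endocardium, whereas Tbx5 patterns the atria, the left ventricle and the conduction system and is also required for the forelimb to form. Tbx20 lies on the minus strand of chromosome 9 from 24527648 to 24578746, and its 3 heart TSTRs had 71, 67 and 52 heart reads and no limb reads.

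One Tbx20 region, chr9:24578914-24579460, lay 169 bp upstream of the start, with an RPKM of 0.428, at least 15.0-fold higher in heart. The other 2 lay 5182 and 6294 bp past the 3′ end of the gene. Of these, chr9:24522130-24522466 is only 336 bp long and had the highest heart RPKM of all 18 heart regions, 0.897 (67 reads), rank 77 of 834 in its list. Its neighbour chr9:24520736-24521354 had 71 reads and an RPKM of 0.517, at least 20.5-fold higher in heart. The closest protein-coding start of this pair was that of Dpy19l2, from 20000 bp.

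Tbx5 was the exception among the 5 genes. It lies on the plus strand of chromosome 5 from 120284672 to 120335227, and all 8 regions near it stood in the limb list. They were spread over 27279 bp upstream of the gene, from 37039 to 10769 bp before its start, and Tbx5 was the closest start of any transcript for each. No heart TSTR lay within 100 kb, and the closest was 2258507 bp away, near Myl2.

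From the farthest region inward, the limb reads were 103, 82, 42, 113, 89, 89, 88 and 66. The heart reads of the same regions were 66, 50, 17, 76, 46, 55, 26 and 34. Limb exceeded heart in every region, yet no region was without heart reads. Among the heart TSTRs near the other 4 genes, 10 of 18 had no limb reads, but each of the 4 at Gata4 had some. In the complete lists 22.8% of heart TSTRs had no limb reads and 12.1% of limb TSTRs had no heart reads.

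The region with the most reads at Tbx5, chr5:120250607-120251815, had RPKM values of 0.486 in limb and 0.283 in heart, a ratio of 1.72 (1.27 to 2.33). The highest limb RPKM, 0.530 against 0.294 in heart, belonged to chr5:120246624-120247633, with a ratio of 1.80 (1.31 to 2.49). The region closest to the start, chr5:120272643-120273903, had RPKM values of 0.272 and 0.121 and a ratio of 2.24 (1.46 to 3.50).

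In order from the far end, chr5:120247667-120248743 had a ratio of 1.89 (1.32 to 2.75), chr5:120249871-120250423 of 2.85 (1.59 to 5.35), chr5:120252159-120253430 of 2.24 (1.55 to 3.26) and chr5:120258241-120259416 of 1.87 (1.32 to 2.67). The largest ratio, 3.91 (2.50 to 6.31), was that of chr5:120259554-120260850, with 88 limb and 26 heart reads. Summed over the 8 regions, 672 limb and 370 heart reads gave a ratio of 2.10 (1.85 to 2.39).

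**Figure D3:**
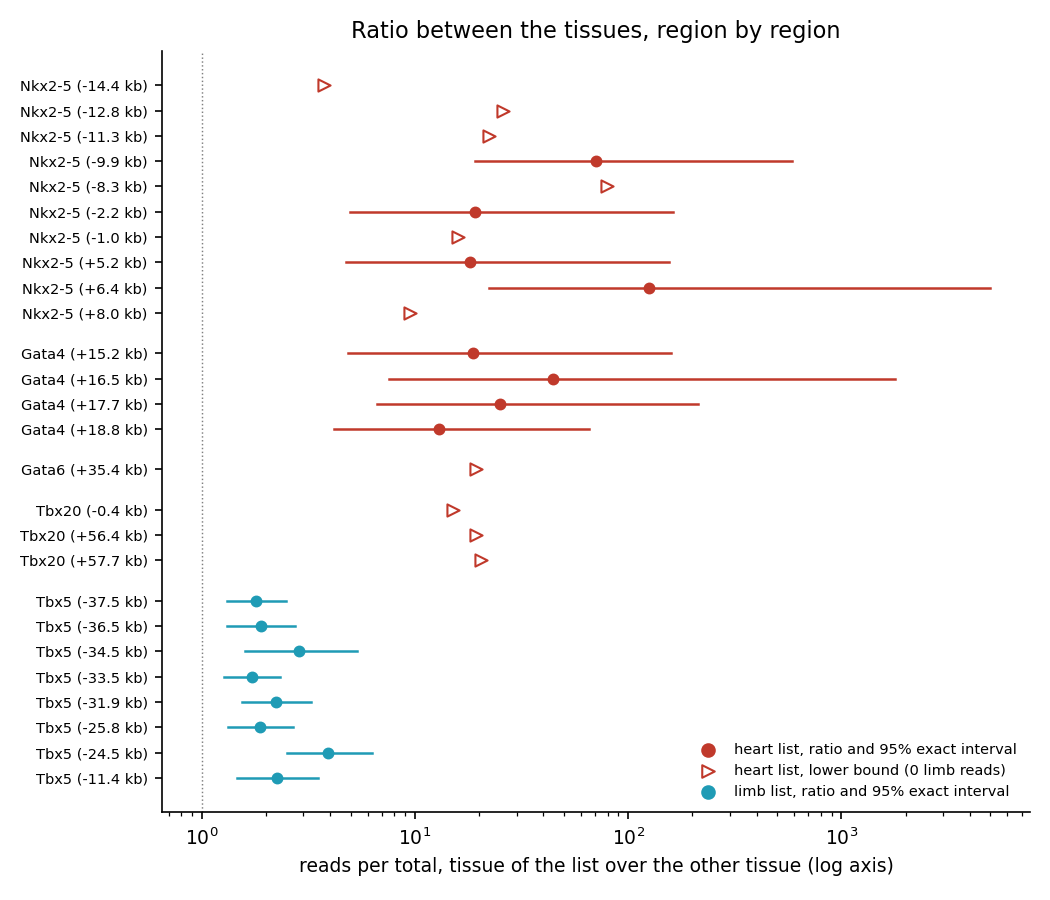
Reads per total in the tissue of the list over the other tissue, on a log axis, for each region, labelled with the distance of its centre from the closest start of the gene. Points with bars are ratios with 95% exact intervals for counting error, and open triangles are lower bounds against 3 reads where the other tissue had none. The Tbx5 ratios lie between 1.72 and 3.91, and the ratios and bounds of the heart TSTRs between 3.75 and 126.

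Transcripts from the Tbx5 regions were measured in heart as well. Their heart RPKM ran from 0.0902 to 0.294 (median 0.186), and the median in heart over all limb TSTRs was 0.0870. The summed heart reads, 370, exceeded those near Gata4 (197), Tbx20 (190) or Gata6 (67), over 8847 bp of listed regions at Tbx5 against 2863, 1500 and 1032 bp. Per covered length, the heart RPKM was 0.188 at Tbx5, 0.309 at Gata4, 0.292 at Gata6, 0.395 at Nkx2-5 and 0.570 at Tbx20. In bulk tissue, fewer cells with a transcript and less RNA per cell cannot be told apart.

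Hand2, Mef2c and Isl1 had no region of either list within 100 kb. Hand2, a bHLH factor of the right ventricle and the limb bud, had its closest heart TSTR 6544033 bp and its closest limb TSTR 4194930 bp away. For Isl1, a LIM homeodomain factor of second heart field progenitors, these distances were 2647448 and 2992182 bp. Mef2c, a MADS factor of cardiac and skeletal muscle, differed from both. A heart TSTR with 64 heart and 11 limb reads (RPKM 0.311 and 0.0618), chr13:83807982-83808907, lay 144007 bp from its closest start but 1299 bp past the 3′ end of the gene, and its ratio was 5.04 (2.63 to 10.6). Only regions with at least 10 reads and without an annotated gene, mRNA or EST are in the lists. They were also selected for a difference between heart and limb. The heart list still holds regions with close values, such as 1 near Myf5 with 1214 heart and 860 limb reads. Other regions with similar RNA in both tissues can have been left out. Genes without a region are therefore not shown to lack RNA in their surroundings.

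The farthest region inside the 100 kb limit was 57392 bp from a Tbx20 start. The closest outside was a limb TSTR 101840 bp from Nkx2-5, with 4 heart and 15 limb reads and 3927 bp from the start of Cuta.

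The regions were also set beside the rest of their lists. The index used for specificity is the RPKM in the tissue of the list minus that in the other tissue, divided by their sum, so that 1 means no reads in the other tissue. Its median was 1 for the 18 heart TSTRs, with a lowest value of 0.857, and 0.727 for the other 816 heart TSTRs. High values were not particular to these genes. The median was 0.984 for 10 heart TSTRs near further cardiac transcription factor genes and 1 for 16 near cardiac muscle genes, both lists described below. None of the 18 was under 0.5, against 24.6% of the complete heart list. For the 8 Tbx5 regions the median was 0.345, with 7 of 8 under 0.5, and for the other 1070 limb TSTRs it was 0.609. In the complete limb list 34.1% of regions were under 0.5. The RPKM in the tissue of the list had medians of 0.303 against 0.288 in heart and 0.394 against 0.344 in limb. The regions near the heart factor genes were longer, with medians of 827.5 bp against 412 bp in heart and 1191.5 bp against 442 bp in limb. These are descriptions without a test, because all regions were chosen by the authors on this same contrast.

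**Figure D4:**
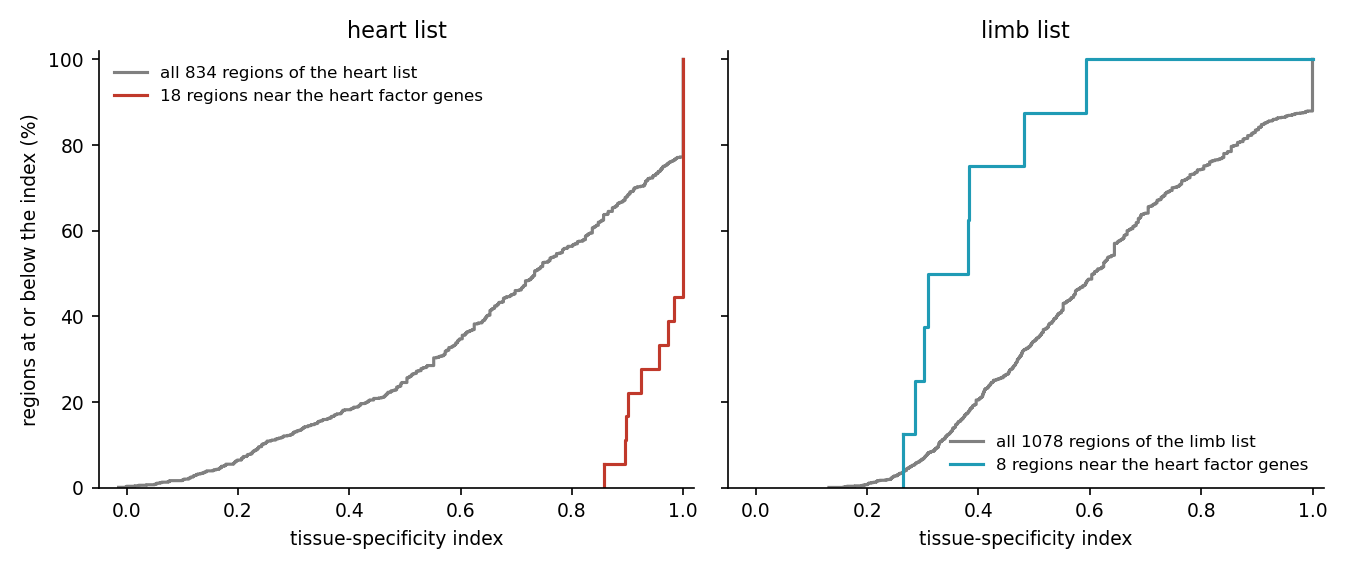
Cumulative share of regions at or below each value of the tissue-specificity index, for the complete heart list and the complete limb list (grey) and for the regions near the heart factor genes (red, heart list; blue, limb list). All 18 heart TSTRs lie at 0.857 or above, and the 8 Tbx5 regions lie between 0.264 and 0.593.

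By a z-test of proportions (two-sided threshold of 0.01, more reads per total in the tissue of the list), all 18 heart TSTRs and all 8 limb TSTRs passed. In the complete lists 78.5% of heart and 99.7% of limb TSTRs passed, and the study's methods name this test as the criterion of selection, so nothing is read from these counts. The totals used here are those implied by the RPKM, whereas the study's test left out ribosomal regions. With totals approximated without ribosomal reads, 73.5% of heart and 100% of limb TSTRs passed. The test compares the reads of 2 libraries and not the tissues. When a coefficient of variation of 0.4 between samples was assumed (edgeR exact test), 18 of 18 heart TSTRs (37.4% of their list) and 0 of 8 Tbx5 regions (22.5% of theirs) passed. At an assumed 0.2 these counts were 18 of 18 (62.1%) and 1 of 8 (57.9%). The spread was assumed and the regions were selected on this contrast, so nothing is read from these counts either.

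Most heart TSTRs near these genes lay in the flanks of a gene. Within 10 kb past the 3′ end of a protein-coding gene were 10 of 18 regions, against 40.3% of the heart list. Within 10 kb upstream of a protein-coding gene were 9 of 18, against 15.1%, and the 4 regions at Gata4 counted in both because they also lie upstream of Neil2. At 5 kb these counts were 8 of 18 past a 3′ end (31.7% of the list) and 7 of 18 upstream (10.9%). None of the 8 Tbx5 regions was in either class, against 41.6% and 27.8% of the limb list at 10 kb and 35.3% and 22.6% at 5 kb. More than 10 kb from any transcript start were 3 of the 18 heart TSTRs (69.3% of the list) and all 8 Tbx5 regions (51.9%). The regions were chosen by their distance to a start and the complete lists were not, so the rule partly sets these shares. Neighbouring regions are also not independent. Joined within 1000 bp, the 18 heart TSTRs form 7 loci and the 8 Tbx5 regions 4, and no test was made. The deposited counts carry no strand, so the direction of these transcripts is not known here.

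Motif letters were searched on both strands of the central 200 bp. A GATA motif (AGATAA or TGATAA) was found in 7 of the 26 windows, against 23.2% of all deposited regions. The NK2 motif TNAAGTG was found in 3 (12.0% of all), the T-box letters AGGTGT in 4 (8.79%), the Hand2 letters CATCTG in 5 (14.0%) and the MEF2 consensus in 0 (4.55%). The Nkx2-5 window printed above held a GATA and an NK2 match, the Tbx20 window a Hand2 match, and those of Gata4 and Tbx5 none. Over the central 200 bp of all regions at a gene, the median GC content was 48.0% at Nkx2-5 and 50.25% at Tbx5. It was 40.5% in the heart list and 42.5% in the limb list.

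Among 26 further cardiac transcription factor genes, 7 had a heart TSTR within 100 kb (26.9%, against 4.06% of protein-coding genes) and 1, Tbx2, had limb TSTRs. This list and the limb factor list below were chosen with earlier results of these data known. Their shares are descriptions and no test. The 2 regions at Tbx2 had 54 limb and 4 heart reads, and the neighbouring limb factor gene Tbx4 has the same counts. The 7 genes had 10 regions. Myocd, the cardiac and smooth muscle cofactor of SRF, had 3 regions with 274 heart and 2 limb reads in sum, the closest 82 bp from its start. Gata5 had 1 region with 49 heart and 0 limb reads, and Hand1, the bHLH partner of Hand2 in the left ventricle, had 1 with 17 and 0. The region near Foxc1 had 151 heart and 101 limb reads. The list also holds Tead1, Zfpm2 and Smyd1, with 105, 10 and 12 heart reads and 10, 0 and 2 limb reads.

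For comparison, limb TSTRs lay near 9 of 26 limb transcription factor genes (34.6%, against 9.03% of protein-coding genes), 40 regions in all with a median index of 0.909. At Lmx1b, the dorsal limb factor, 9 regions had 1619 limb and 2 heart reads, and at Prrx1, a factor of limb mesenchyme, 6 regions had 311 and 9. Beside the 672 limb and 370 heart reads at Tbx5, the 14 limb TSTRs of Twist1, a bHLH factor of mesenchyme, also held reads of both tissues, 986 in limb and 274 in heart. No test of the difference between genes was made.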

How the data were processed

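Total RNA depleted of ribosomal RNA was sequenced from 1 pool per tissue, heart and limb. The authors filtered the 50 bp reads with CASAVA 1.8, and bowtie2 (version not given in the sources used here) mapped them to mm9. They extended alignments to 200 bp, excluded repetitively mapped reads, called enriched regions with USeq without regard to strand, removed those that overlap known transcripts, and selected regions by a two-proportion z-test with a threshold of 0.01. The deposited values are raw read counts per region and RPKM scaled by the authors with region length and reads of the tissue.

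Here, distances ran from the nearest edge of a region to every GENCODE vM1 transcript start on NCBI build 37, the build of the files. The z-test covered all rows of both lists, with the totals implied by count, RPKM and length. Ratios have 95% exact (Clopper-Pearson) intervals, which cover counting error only. Regions are printed with the coordinates of the files, and sequence windows assume a start counted from 0. Named regions are those with the most reads, the highest RPKM or the shortest distance per gene, plus all limb regions. Other regions at Nkx2-5, Gata4, Tbx20 and Mef2c were singled out after their values were seen. The position of regions past gene ends was examined after their values were seen. The genes and lists were chosen with earlier results of these data known. Alternatives changed distances, totals, tests, filters, pseudocounts and windows. With 1 sample per tissue, edgeR was run only with an assumed spread. Scaling by TMM or DESeq2 size factors was not run because the lists hold only regions selected as tissue-specific. The tests were checked on simulated counts. Scripts used Python 3.11.15, scipy 1.17.1, pandas 2.3.3, numpy 2.4.6 and matplotlib 3.10.9, and R 4.3.3 with edgeR 4.0.16.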

Additional observations from a re-analysis of the deposited data

How the results depend on the processing

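No paired analysis was possible because each tissue has 1 sample. When regions within 1000 bp of each other were counted as 1, 7 loci were left of the heart list and 4 of the limb list, and 6 and 2 within 5000 bp. The number of Tbx5 regions that passed fell from 8 to 1 and 0 when edgeR assumed a coefficient of variation of 0.2 and 0.4, and the share of the complete limb list that passed was 99.7%, 57.9% and 22.5%. With 0.1 RPKM added to both tissues the median index was 0.598 for the heart and 0.243 for the limb regions (0.455 and 0.409 in the complete lists). Matches in the central 100 bp numbered 1 for GATA, 1 for T-box and 3 for Hand2, and in whole regions 19 for GATA, 9 for NK2, 11 for T-box, 15 for Hand2 and 2 for MEF2. In 57 further recalculations the summary values moved by at most 1.5 times (counts) or stayed in their 95% interval (medians). That interval came from the ranked values of the regions and treated them as independent. Neighbouring regions are not independent, so it served only as a yardstick. Among the 57 were recalculations with other distances, other totals and a minimum of 20 reads. No median index or ratio of a region reversed its direction, but selection of the regions on this contrast made a reversal unlikely. Counts and RPKM could not reverse. At 200 kb, and with the distance taken to the gene body (chosen after seeing the data), 6 genes had a region, Mef2c included. At 200 kb the limb TSTRs numbered 11, because 3 near Nkx2-5 were added (15, 85 and 86 limb reads). At 50 kb, Tbx20 kept 52 of its 190 heart reads.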

Other observations

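Lists of other cell types and of muscle genes were read in the same way, by regions within 100 kb. These lists were also chosen with earlier results of these data known, so their shares are no test. Of 20 cardiac muscle genes, 11 had a heart TSTR (16 regions with a median index of 1) and 3 had a limb TSTR. Myh6 and Myh7 had the same counts as each other, and so did Nppa and Nppb. Over all protein-coding genes these shares were 4.06% for heart and 9.03% for limb TSTRs, against 55% and 15% here. Of 10 endothelial genes, 2 (20%), Sox17 and Nfatc1, had a limb TSTR and none had a heart TSTR. Of 7 red blood cell genes, 1 (14.3%), Alas2, had limb TSTRs, with 82 limb and 34 heart reads. Among 7 skeletal muscle precursor genes, 1 (14.3%), Myf5, had a heart TSTR, with 1214 heart and 860 limb reads. Heart TSTRs near 3 of 26 limb factor genes (Meis1, Meis2 and Twist1) had a median index of 0.121, against 0.733 in the complete heart list.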
